A study of Mus musculus with 24 samples.

Results

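The transcriptome described here is that of wild-type long-term haematopoietic stem cells (LT-HSCs) from mice that received vehicle and no interferon. It comprised 6 of the 24 libraries of the study, all those with these labels, and no contrast with another group was made. The group was picked with earlier results of these data known. The study had 4 groups of 6 libraries: Jak2V617F cells given pegylated interferon alpha (pegIFN, 600 ng per dose), Jak2V617F cells given vehicle, wild-type cells given pegIFN, and the wild-type vehicle cells. All groups came from lethally irradiated (11 Gy) Ptprc a/b C57BL/6J recipients of 2000000 whole marrow cells, mixed in equal parts from Jak2fl-V617F/+ Tg(E2A-cre) donors and congenic Jak2+/+ donors. The vehicle, PBS with BSA, was injected under the skin weekly in 5 doses over 4 weeks, and cells were taken 48 h after the last dose. The wild-type cells (genotype label C57Bl/6N Ptprca) were sorted as CD45.1+, CD45.2-, lineage-negative, Sca1+, cKit+, CD150+ and CD48-. They are therefore stem cells that had regrown in an irradiated host beside Jak2V617F competitors, and not cells of an undisturbed mouse. The labels name no donor for a library, so all spread given below is spread between these 6 libraries.

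LT-HSCs sit at the top of the blood hierarchy and can rebuild every blood lineage for the life of a recipient. Most of them are out of the cell cycle in adult marrow, and their state is held by a small network of transcription factors together with receptors for niche signals such as stem cell factor. In the mouse the stem cell fraction also carries transcripts of the megakaryocyte lineage, and its members are known to differ in how strongly they do.

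The libraries held 27093327 to 35741647 expected counts, that is, reads assigned per gene with reads shared by several genes divided among them. Between 13840 and 14445 genes reached 1 TPM (a level corrected for gene length and scaled to the same total in each library, so that genes can be compared) in a library, and 12920 did so in all 6. Single libraries stood apart on different components of the spread. The score of replicate 4 on the first principal component of log2 CPM (counts scaled to library size, without the length correction) was 37.6, against -26.7 to 7.33 in the other 5, and this component held 36.1% of the variance. Replicate 2 was lowest on the second component (21.2% of the variance), at -33.3 against -1.92 to 14.3, and replicate 6 highest on the third (16.3%), at 24.2 against -11.2 to 13.6. Of the 14197 tested genes, 17.7%, 17.6%, 18.7%, 24.5%, 12.2% and 9.35% were highest in replicates 1 to 6, in that order, and 15.4%, 18.4%, 19.3%, 24.4%, 12.2% and 10.3% were lowest. Sex-linked transcripts also separated replicate 4. Xist, a noncoding RNA made from the inactive X of female cells, was 628 CPM in replicate 4 and 2014 to 3460.3 CPM in the others, and the Y-linked Ddx3y was 103 CPM in replicate 4 and 8.09 to 30.3 CPM elsewhere. The labels do not explain this. The library names hold the numbers 41 to 44 in replicates 1 to 4 and 61 and 63 in replicates 5 and 6, but what these numbers mean is not given in the sources used here. The names also end in positions S4, S5 and S6, which occur in replicates 1 to 3 and again in replicates 4 to 6. If these were 2 sets of 3 libraries, which the labels do not state and which was assumed from the listing order after the data were seen, 10.8% of the tested genes had all of replicates 1 to 3 above all of 4 to 6, and 9.93% the reverse. First component scores were negative in replicates 1 to 3 and positive in replicates 4 to 6. Within replicates 1 to 3 alone 1220 genes differed over 2 times, and within 4 to 6 alone 1215. A difference between such sets and one between animals or samples cannot be told apart here.

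The cells carried the transcripts that define LT-HSCs. Levels in this account are TPM as mean ± SD over the 6 libraries unless another form is named. Of 40 stem cell identity genes, all 40 were at 1 TPM or more in every library, beside 35.5% of all genes with a known length and 52.3% of protein-coding genes. Such detection is not particular to identity genes. It was also reached by 19 of 19 erythroid, 19 of 20 granulocyte and monocyte, and 19 of 20 megakaryocyte and platelet genes. Meis1, a homeobox cofactor of HOX proteins, had a lowest, median and highest level of 102, 111 and 128 TPM. Hlf, a leucine zipper factor largely restricted to stem cells in marrow, had 119, 154 and 267 TPM. Replicate 4 was highest for both genes, and for Hlf it lay well above the next library. Procr, which encodes the protein C receptor used to purify stem cells, had 56.02, 59.1 and 89.8 TPM. It was highest in replicate 1, and the other 5 libraries lay close together. Mecom, a zinc finger factor needed for stem cell maintenance, had 29.5, 45.5 and 49.8 TPM. Slamf1, which encodes the CD150 antigen of the gate, had 30.8, 38.03 and 41.2 TPM. Fgd5, a guanine nucleotide exchange factor used as a reporter of stem cells, had 11.5, 14.96 and 21.1 TPM. Mecom, Slamf1 and Fgd5 were all lowest in replicate 3. Ordered by mean level, the markers ran Hlf (175 ± 52.1), Meis1 (113 ± 9.53), Procr (63.9 ± 13.1), Mecom (42.995 ± 7.49), Slamf1 (36.6 ± 3.90) and Fgd5 (15.4 ± 3.97). The neighbours Hlf and Meis1 overlapped in their ranges, as did Mecom and Slamf1, whereas Fgd5 lay below Slamf1 in every library.

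**Figure D1:**
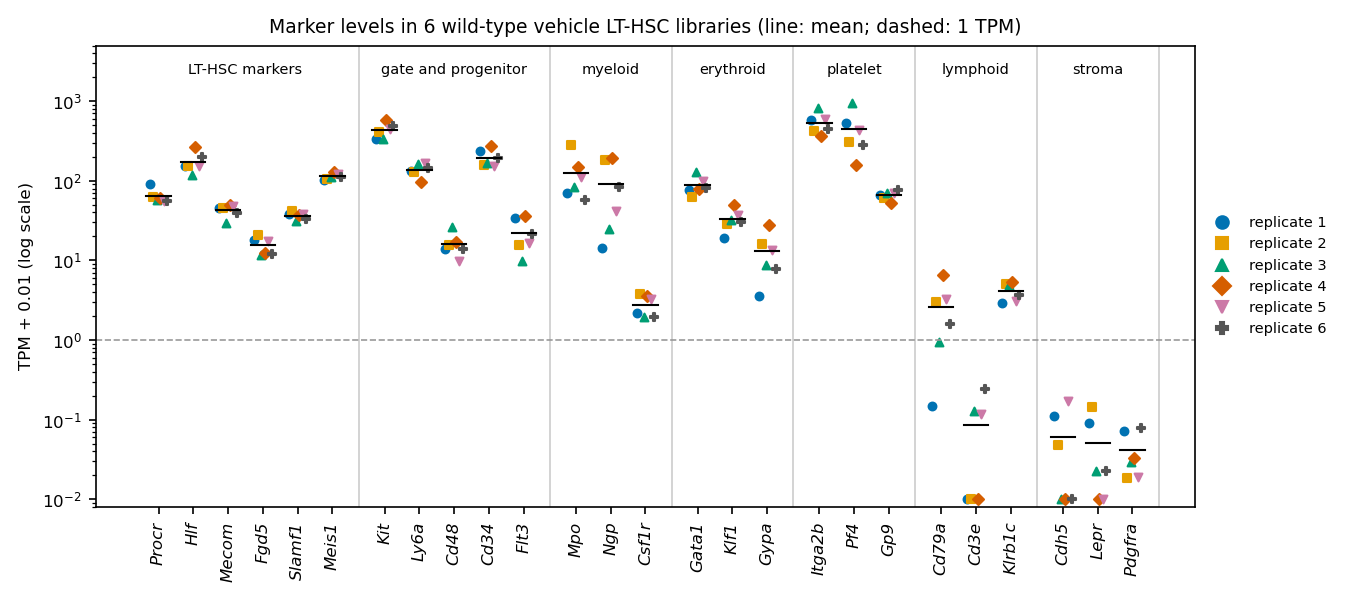
Levels as TPM + 0.01 (log axis) of the 6 LT-HSC markers, gate and progenitor genes, and genes of other lineages and stroma in the 6 wild-type vehicle libraries, with 1 symbol per library, a bar at the mean and a dashed line at 1 TPM; values of 0 lie at 0.01. Meis1 stays between 102 and 128 TPM, Flt3 spreads from 9.75 to 35.8 TPM, and Cdh5, Lepr and Pdgfra lie below 1 TPM.

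Among the other identity genes, the transcription factor Lmo2, a bridging protein of the SCL complex, was the most abundant at 1002 ± 94.7 TPM, with a range of 915 to 1157. Gata2, a zinc finger factor of stem and progenitor cells, followed at 456 ± 34.1 TPM. Receptors and secreted niche factors were also high. Kit, the stem cell factor receptor, averaged 435 ± 97.1 TPM and the angiopoietin Angpt1 408 ± 55.9 TPM. Vwf, the von Willebrand factor gene that marks a platelet-primed subset of stem cells, had 57.7, 126 and 193 TPM as lowest, median and highest values, highest in replicate 5 and lowest in replicate 4. Ndn, which encodes the growth suppressor necdin, was the scarcest of the 40 at 3.86 ± 1.09 TPM.

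The gate could be read in part at the RNA level. Ly6a, which encodes Sca1, had 96.5, 137 and 166 TPM, and Kit 333, 433 and 587 TPM. Of the antigens used for exclusion, Cd48 was not absent, with 9.93, 14.8 and 25.96 TPM, and it exceeded Slamf1 in none of the 6 libraries. Transcripts of some but not all lineage antigens were close to 0. Cd3e averaged 0.0764 ± 0.0942 TPM, Cd5 0.0417 ± 0.0485 TPM and Ly6g, which encodes the Ly6G part of the Gr-1 epitope, 0.322 ± 0.227 TPM. Itgam, which encodes CD11b, averaged 7.76 ± 2.89 TPM. Ptprc, the gene of the CD45 allele pair itself, stood at 119.8 ± 19.5 TPM. In bulk RNA a few cells with many copies of a transcript and many cells with few copies cannot be told apart, and this holds for every level below.

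Markers of other blood cells were present at levels that differed by lineage. Progenitor genes included Cd34 (196 ± 46.96 TPM), and Flt3, the receptor of lymphoid-primed multipotent progenitors, at 9.75, 18.98 and 35.8 TPM. Replicates 1 and 4 were highest for Flt3 and replicate 3 was lowest. The 20 granulocyte and monocyte genes summed to 814 TPM in replicate 1, the lowest, and 2636 TPM in the highest library. Lyz2, the lysozyme of myeloid cells, averaged 349.5 ± 85.4 TPM, and Prtn3, a granule protease, 287 ± 90.1 TPM. The 19 erythroid genes, globins included, summed to 1887 to 5012 TPM, with Car2, a carbonic anhydrase that stem cells also express, the largest at 926 ± 133 TPM. The 20 megakaryocyte and platelet genes summed to 1915 to 4054 TPM, led by Itga2b, the integrin chain CD41, at 536 ± 162 TPM and Pf4, a platelet chemokine, at 443 ± 275 TPM. Of the 10 B lymphoid genes, 2 reached 1 TPM in every library: Cd79b, at 24.2 ± 1.09 TPM, and Vpreb1, at 2.81 ± 0.896 TPM. The B lineage regulators Pax5 and Ebf1 averaged 0.104 ± 0.114 and 0.172 ± 0.141 TPM. Among T and NK lymphoid genes, Nkg7 reached 129 ± 39.6 TPM while Cd3d and Cd8a averaged 0.0861 ± 0.12 and 0.0495 ± 0.0459 TPM. Of 12 endothelial and stromal genes, 5 reached 1 TPM in every library, and the list summed to 59.3 to 88.04 TPM. Pecam1, an adhesion molecule of endothelium that blood cells also carry, was the highest at 42.4 ± 8.55 TPM, while the endothelial cadherin gene Cdh5 averaged 0.0499 ± 0.0669 TPM and Lepr, which marks stromal cells of the niche, 0.0405 ± 0.0557 TPM. Of 10 mast cell and basophil genes, 3 reached 1 TPM in every library, and the list summed to 29.7 to 124 TPM. Fcer1a, a chain of the IgE receptor, averaged 17.04 ± 8.43 TPM and the basophil protease Prss34 ran from 0.281 to 49.3 TPM. The mast cell protease Tpsb2 was at 0 in all 6 libraries, where 3 counts correspond to 0.0839 to 0.111 CPM. Of 6 genes of this list with enough counts to test, 5 differed over 2 times between libraries (83.3%, beside 19.8% of all tested genes).

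Genes of the translation apparatus were prominent among the most abundant genes. A set of 562 genes accounted for 50% of all TPM, and the 100 most abundant genes held 28.03 ± 1.17%. This share was highest in replicate 6, at 30.3%, and lay between 26.8% and 27.96% in the others. Of these 100 genes, 46 encoded cytosolic ribosomal proteins, 13 were mitochondrially encoded and 13 were annotated as pseudogenes. The ranking was stable, as 89 genes were among the top 100 in every library. Eef1a1, the elongation factor that brings aminoacyl-tRNA to the ribosome, ranked 1 at 13525 ± 443 TPM with a range of 13003 to 14152 TPM. Genes for ribosomal proteins held 12.98 ± 0.48% of the TPM, and 92 of 96 were detected in every library. Their most abundant nuclear members were Rplp1 (4384 ± 367 TPM), a stalk protein of the large subunit, and Rps3a (3975 ± 112 TPM) and Rps4x (3950 ± 87.5 TPM) of the small subunit. Other factors of translation were close behind. Eef2, the translocase of the ribosome, averaged 3177 ± 334 TPM, Tpt1, a translationally controlled protein, 2494 ± 51.2 TPM, and Pabpc1, which binds the poly(A) tail, 2197 ± 59.5 TPM.

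The mitochondrially encoded genes held 7.81 ± 1.34% of the TPM, from 6.32% in replicate 1 to 10.2% in replicate 6. The most abundant were mt-Co1, a subunit of cytochrome c oxidase, at 13021 ± 2276 TPM, and mt-Atp6, of the ATP synthase, at 12752 ± 1960 TPM. The oxidase subunits mt-Co2 and mt-Co3 averaged 11186 ± 2266 and 8825 ± 1438 TPM. mt-Atp8 averaged 8430 ± 1630 TPM. Its annotated span on the mitochondrial genome (7766 to 7969) overlaps the start of that of mt-Atp6 (7927 to 8607). How reads that touch the overlap were assigned is not known here. The gene is short, and its level was not corrected for fragment length.

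Genes annotated as pseudogenes held 7.85 ± 0.23% of the TPM, and their levels depend on how reads shared with a parent gene were divided. Of the values above 0, 65.5% were not whole numbers (to within 1e-06) for pseudogenes, against 27.9% for protein-coding genes, which shows that reads were split. Every 75-base stretch, the read length used, of 9 of the 13 top-100 pseudogenes also occurs in another gene, for example all of Rpl31-ps8 in Rpl31. A read from Rpl31-ps8 therefore cannot be told from one of Rpl31, although 39.7% of the 75-base stretches of Rpl31 itself occur in another gene. Rpl39-ps is a different case. It was the most abundant of the 13 at 3387 ± 548 TPM, and 28.6% of its 75-base stretches occur in another gene. Its 151-base transcript (gene at chr15:102634982-102635336, plus strand, GRCm38) is shown with the matching stretch of Rpl39 (gene at chrX:37082520-37085402, minus strand), because they differ at a single base, in capitals, and a read must cover that base to be told apart.
Rpl39-ps: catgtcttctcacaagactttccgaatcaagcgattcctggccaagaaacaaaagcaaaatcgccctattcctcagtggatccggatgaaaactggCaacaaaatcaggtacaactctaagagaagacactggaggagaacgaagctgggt
Rpl39: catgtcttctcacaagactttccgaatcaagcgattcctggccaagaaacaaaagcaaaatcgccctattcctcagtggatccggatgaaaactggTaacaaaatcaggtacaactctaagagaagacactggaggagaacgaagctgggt

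**Figure D2:**
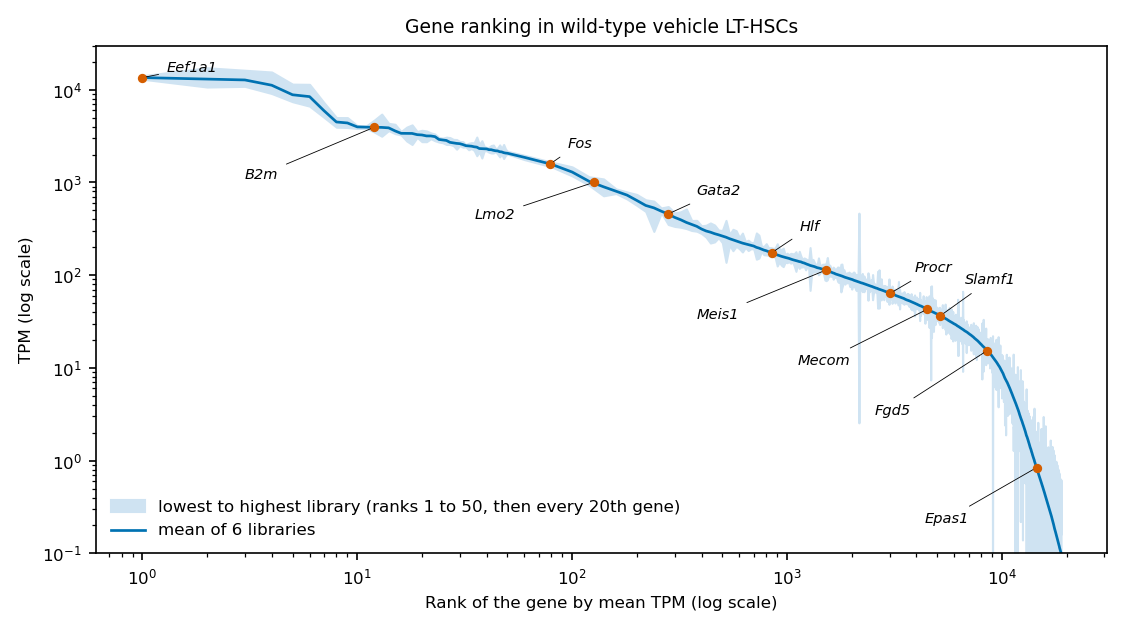
Mean TPM over the 6 wild-type vehicle libraries (line, log axis) against the rank of the gene by mean TPM (log axis), with a band from the lowest to the highest library, drawn for ranks 1 to 50 and then every 20th gene; dots mark named genes. Eef1a1 ranks 1 at 13525 TPM, B2m ranks 12, and the markers Hlf to Fgd5 lie further down, at 175 to 15.4 TPM.

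Outside these classes, the top of the ranking named the programmes most strongly expressed in the cells. Antigen presentation by MHC class I was the foremost. B2m, the light chain of class I molecules, ranked 12 at 3941 ± 458 TPM, with 3500.4, 3729 and 4705 TPM as lowest, median and highest values. The heavy chains H2-K1, H2-Q7 and H2-D1 averaged 3253 ± 315, 1715 ± 197 and 1539 ± 181 TPM. Of the 75-base stretches of H2-K1 and H2-D1, 1.12% and 6.33% occur in another gene. The peptide loading genes were lower, at 291 ± 53.9 TPM for the transporter Tap1 and 352 ± 18.8 TPM for the immunoproteasome subunit Psmb8. Prothymosin alpha, Ptma, a chromatin-associated acidic protein, was the most abundant nuclear transcript after Eef1a1 at 4491 ± 468 TPM. The constitutive chaperones Hsp90ab1 and Hspa8 averaged 2838 ± 197 and 2404 ± 392 TPM. Stretches of 75 bases that also occur in another gene made up a share of Hspa8 (62.4%) and Eef1a1 (36.8%). Gpr56, an adhesion receptor of stem cells now named Adgrg1, stood at rank 78 with 1596 ± 188 TPM and was the most abundant receptor gene named here. Fos, an immediate early gene, held rank 79 on average, although it was the most variable of the genes named in this paragraph, with 711, 1715 and 1967 TPM as lowest, median and highest values. Zfp36l2, an RNA-binding protein that shortens the life of AU-rich messages, averaged 1295 ± 119 TPM.

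Resting levels of stress and immune programmes were also measurable. Of 35 interferon-stimulated genes, 33 were at 1 TPM or more in every library although no interferon was given, beside 52.3% of protein-coding genes. The median level of the 35 was 23.9 TPM, near the 26.7 TPM of all detected genes. Bst2, which tethers virus particles to the cell surface, averaged 120.3 ± 8.83 TPM, Irf9, a DNA-binding factor of the interferon response, 73.5 ± 13.1 TPM and Ifit2, which recognises viral RNA, 31.8 ± 3.37 TPM. The membrane restriction factors Ifitm2 and Ifitm3 were far higher, at 802 ± 67.7 and 726 ± 145 TPM. The NF-kB subunits Nfkb1 and Rela averaged 146 ± 13.8 and 103 ± 10.3 TPM. Among p53 targets, Mdm2, which degrades p53, averaged 64.1 ± 8.83 TPM and the BH3-only gene Bbc3 22.02 ± 5.38 TPM. Of the stress response genes, the endoplasmic reticulum chaperone Hspa5 averaged 481 ± 146 TPM and the translation-controlled factor Atf4 284 ± 29.9 TPM. All 20 glycolysis genes were detected in every library, beside 52.3% of protein-coding genes. Ldha averaged 804 ± 96.1 TPM, Pkm, the pyruvate kinase, 698 ± 106 TPM and Gapdh 578 ± 73.3 TPM.

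Many sets of related or partner genes had 1 constant leading member. In 77 of 100 such sets, called families here, the same member led in all 6 libraries. In 55 it held over 50% of the family's TPM in every library. That count includes families of 2 members, in which a constant leader holds over 50% by arithmetic. Some families hold binding partners as well as relatives, and a partner can lead. Ctnnb1 led the TCF and LEF family and Cbfb the RUNX family. For 56 pairs of related genes the log2 ratio of TPM + 0.1 was tested by an exact two-sided sign-flip permutation test over the 6 libraries. In 48 pairs the same gene was higher in all 6, which gives an exact permutation p = 0.03125, the smallest value that 6 libraries allow (0.0365 after Benjamini-Hochberg adjustment over the pairs). The pairs were chosen with earlier results of these data known, so these p values are not those of pairs fixed in advance. The test covers the spread between libraries and not the error of the annotated gene lengths, on which the ratio also rests, and reads that relatives share were divided among them. All pairs named below with a ratio are among these 48 unless stated otherwise. The length definition ended the call of 6 of them without turning the direction, among them Cdkn1c/Cdkn1a and Lyl1/Tal1 with the longest transcript, and Ccnd3/Ccnd1, Hoxa9/Hoxa5 and Abcg2/Abcb1b with exons of all annotated transcripts.

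Among transcription factors, Gata2 exceeded the erythroid factor Gata1 by 2.41 ± 0.29 log2 units and the T cell factor Gata3 by 4.59 ± 0.26. Its share of the GATA family was 77.1% to 83.1%. Meis1 held nearly all of the MEIS transcripts, with Meis2 at 0.457 ± 0.408 TPM. The HOXA cluster was broad, with 8 of 11 genes at 1 TPM or more in every library and Hoxa9 in the lead at 56.8 ± 10.1 TPM. In the HOXB cluster Hoxb4, whose overexpression expands stem cells, held 40.8% to 54.5% of the TPM and exceeded Hoxb5 by 1.51 ± 0.30 log2 units. By contrast, the 9 HOXC genes summed to 4.96 ± 3.59 TPM and none of the 9 HOXD genes was detected in every library. Hoxd9 was the sole HOXD gene with a count, in replicate 2. Mecom exceeded its relative Prdm16 by 1.52 ± 0.23, and the repressor Gfi1b exceeded Gfi1 by 3.80 ± 0.54. Among E proteins, the partners of SCL, Tcf3 held 67.8% to 71.2%. Lmo2 made up 61.7% to 64.2% of the SCL, LYL1 and LMO family, in which Lyl1 (207 ± 32.1 TPM) exceeded Tal1 (158 ± 11.7 TPM) by 0.37 ± 0.20. Foxo3, the FOXO factor linked to stem cell quiescence, held 49.3% to 57.6% and exceeded Foxo1 by 2.75 ± 0.21. Myc held 60.99% to 70.6% of its family and Mycn, at 197 ± 32.2 TPM, the remainder, with a Mycn to Myc ratio of -0.98 ± 0.28 log2 units.

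Receptors and adhesion molecules showed similarly uneven use. Kit made up 88.1% to 94.5% of the class III receptor kinases and exceeded Flt3 by 4.40 ± 0.65. Among cytokine receptor genes, Csf2ra, a chain of the GM-CSF receptor, averaged 69.8 ± 16.7 TPM and Il3ra, of the interleukin-3 receptor, 16.4 ± 3.15 TPM. Cxcr4, the receptor for the niche chemokine CXCL12, held 91.03% to 96.8% of 9 chemokine receptors at 127 ± 21.3 TPM. Notch2 exceeded Notch1 by 2.38 ± 0.12, and Tie1 exceeded the angiopoietin receptor Tek by 1.72 ± 0.36. Endoglin, Eng, a co-receptor for TGF-beta, led its family at 177 ± 27.1 TPM, and Tgfbr2 exceeded Tgfbr1 by 0.80 ± 0.23. Integrin alpha chains were led by Itga2b, followed by Itga6 (184 ± 19.8 TPM), a laminin receptor chain, which exceeded Itga4, the alpha chain of VLA-4, by 1.25 ± 0.27. Itgb1 led the beta chains with 46.7% to 55.6%.

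In signalling, Jak1 (170.2 ± 10.4 TPM) exceeded Jak2 (67.2 ± 7.90 TPM), a kinase of cytokine receptors, by 1.34 ± 0.17, and Jak3 stood at 163 ± 22.5 TPM. Akt1 held 65.05% to 70.6% of the AKT kinases and Pik3cd, the leukocyte isoform of the PI3K catalytic subunit, 48.2% to 57.8% of its family. Nras led the RAS genes with 36.96% to 43.3%. Ctnnb1, which encodes beta-catenin, was abundant at 339 ± 20.3 TPM, whereas Tcf7 and Lef1, its partners in lymphoid cells, averaged 0.425 ± 0.388 and 0.151 ± 0.146 TPM. Stat5a exceeded Stat5b in all 6 libraries, with a Stat5b to Stat5a ratio of -0.51 ± 0.07, but this order turned to 0.34 when exons of all annotated transcripts were counted in the lengths.

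Among cell cycle genes, Cdk4 was higher than Cdk6, and both encode kinases that D-type cyclins can activate. The ratio of Cdk6 to Cdk4 was -2.75 ± 0.37 log2 units, with Cdk6 at 50.2 ± 7.91 TPM and Cdk4 at 337 ± 35.2 TPM. Of the D-type cyclins, Ccnd3 averaged 233 ± 29.6 TPM, Ccnd2 158 ± 13.1 TPM and Ccnd1 66.03 ± 17.97 TPM. The Ccnd2 to Ccnd1 ratio was 1.29 ± 0.27, while the Ccnd2 to Ccnd3 ratio was -0.55 ± 0.24 and changed sign, to 0.80, with the wider exon set. Among the CIP/KIP inhibitors, Cdkn1b (p27) led with 58.4 ± 14.9 TPM. Cdkn1c (p57), an imprinted inhibitor that holds stem cells in quiescence, followed at 20.4 ± 4.76 TPM, and Cdkn1a (p21) at 9.72 ± 4.47 TPM, a Cdkn1c to Cdkn1a ratio of 1.16 ± 0.74. The more abundant INK4 inhibitors were Cdkn2d at 65.3 ± 8.54 TPM and Cdkn2c at 40.3 ± 11.996 TPM, while Cdkn2a and Cdkn2b averaged 0.26 ± 0.0979 and 0.0674 ± 0.0854 TPM. Of the p53 family only Trp53 reached 1 TPM, at 309 ± 12.8 TPM, while Trp63 averaged 0.00149 ± 0.00365 TPM and Trp73 was at 0 in all 6 libraries.

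Of the survival genes, Mcl1, a short-lived BCL2 relative on which stem cells depend, held 70.5% to 79.8% of its family and exceeded Bcl2 by 3.02 ± 0.22. Bax and Bak1, which open the mitochondrial outer membrane, averaged 98.7 ± 5.66 and 84.3 ± 6.35 TPM. Their ratio of 0.23 ± 0.09 log2 units turned to -0.62 with the wider exon set.

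Chromatin regulator families also had leading members. Dnmt1, the maintenance DNA methyltransferase, averaged 211 ± 30.1 TPM and exceeded the de novo enzyme Dnmt3a (43.5 ± 3.21 TPM) by 2.27 ± 0.31. The Dnmt3a to Dnmt3b ratio was -0.35 ± 0.20. Ezh2, the histone H3K27 methyltransferase of PRC2, averaged 115 ± 19.1 TPM and its relative Ezh1 22.996 ± 2.89 TPM. Of the TET dioxygenases, Tet3 held 57.95% to 59.8%, and Tet2, often mutated in clonal haematopoiesis, averaged 11.5 ± 1.80 TPM. Among PRC1 chromobox genes Cbx6 led at 101 ± 10.5 TPM, and Cbx7, which favours self-renewal, averaged 48.3 ± 12.4 TPM. Bmi1, a PRC1 subunit needed for self-renewal, exceeded Pcgf2 by 0.98 ± 0.19. H3f3b supplied 73.2% to 78.1% of the histone H3.3 transcripts.

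Metabolic families ranged from one-sided to even. In 13 of the 100 families, metabolic or not, the leading member held over 90% in every library, among them the TCF and LEF family led by the partner Ctnnb1. Ldha held 89.5% to 95.02% of the lactate dehydrogenases, Aldoa 96.6% to 98.5% of the aldolases and Cox4i1 98.8% to 99.7% of the cytochrome c oxidase subunit 4 genes. Pfkl, by contrast, held 46.7% to 50.4% of the phosphofructokinases and Idh3g 30.7% to 34.4% of its isocitrate dehydrogenase family. Hk1 exceeded Hk2 by 2.94 ± 0.22 and the glucose transporter Slc2a3 exceeded Slc2a1 by 2.56 ± 0.27. Pdk3 led the pyruvate dehydrogenase kinases at 85.3 ± 4.69 TPM. Hif1a, the oxygen-regulated subunit of the hypoxia factor, averaged 28.9 ± 3.10 TPM and exceeded Epas1 by 4.97 ± 0.40. Aldh2 (359 ± 31.2 TPM) and Aldh1a1 (243 ± 25.2 TPM), which detoxify aldehydes, were the 2 foremost aldehyde dehydrogenases. Abcg2, the transporter behind the side population of stem cells, averaged 27.2 ± 2.06 TPM, and the Abcg2 to Abcb1b ratio was -0.45 ± 0.14. Msi2, an RNA-binding regulator of stem cells, held 99.4% to 99.8% of its family, and Msi1 was at 0 in all libraries.

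**Figure D3:**
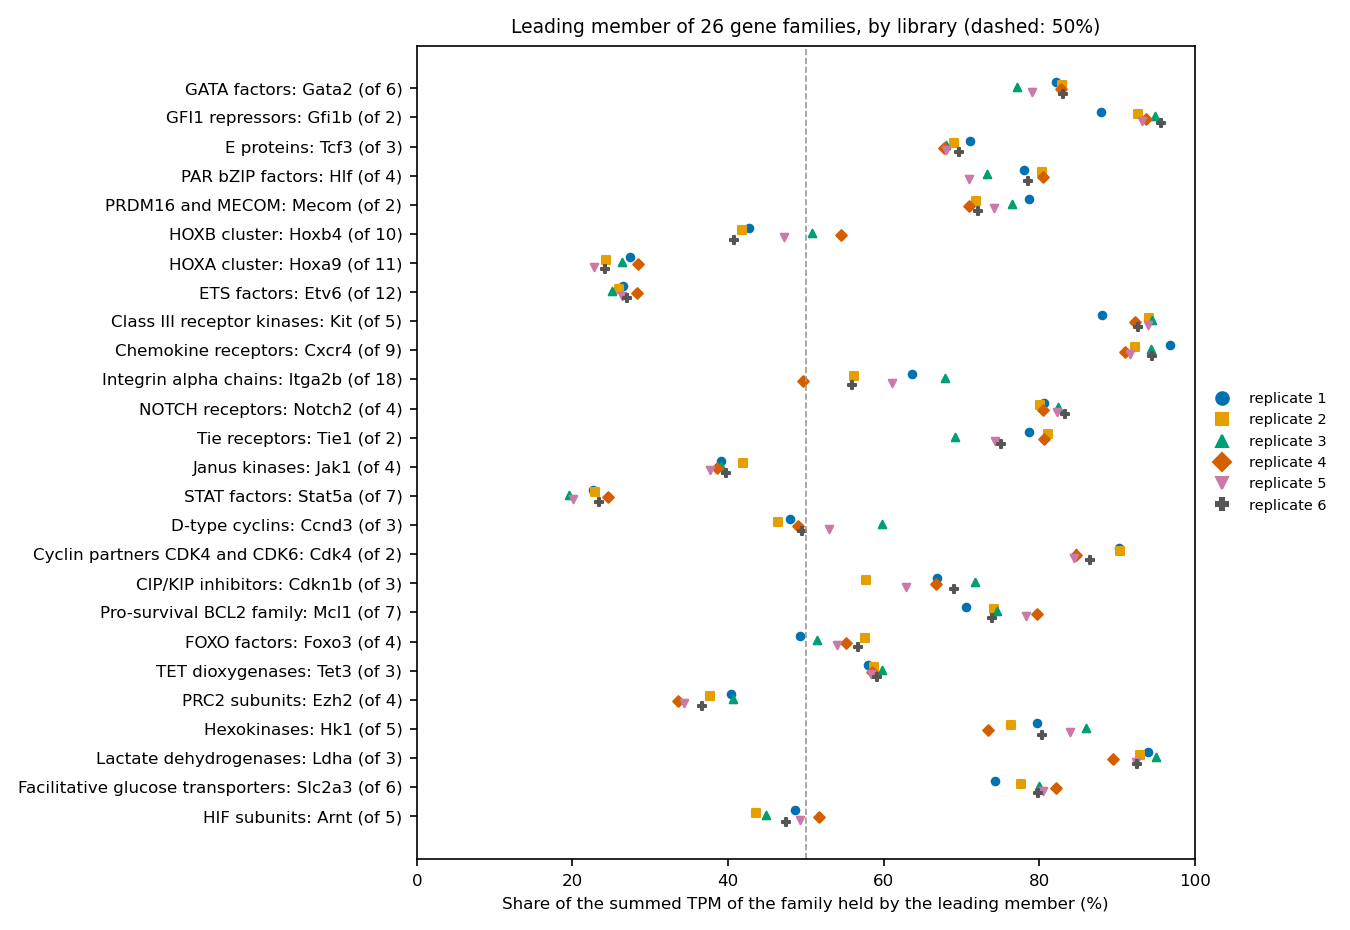
Share of the summed TPM of a family (percent, linear axis from 0) held by its leading member in 26 gene families, with 1 symbol per library for the 6 wild-type vehicle libraries and a dashed line at 50%. Kit holds 88.1% to 94.5% of the class III receptor kinases in the 6 libraries, while Hoxa9 holds 22.7% to 28.4% of the HOXA cluster.

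In 8 pairs the order differed between libraries, so no leading member could be named. Bcl2 (34.2 ± 2.58 TPM) and Bcl2l1 (32.96 ± 5.44 TPM), which encodes Bcl-xL, differed by 0.07 ± 0.22 log2 units, with Bcl2 higher in 4 of 6 libraries (exact p = 0.5625). The interferon receptor chains Ifnar2 and Ifnar1 averaged 50.96 ± 6.27 and 50.9 ± 5.19 TPM, with a log2 ratio that ran from -0.0855 to 0.102. Smad4 and Smad3, mediators of TGF-beta signalling, averaged 57.6 ± 4.91 and 58.4 ± 7.57 TPM, and the small GTPases Rac2 and Rac1 161 ± 10.8 and 157 ± 12.7 TPM. Runx1 (74.3 ± 16.7 TPM) was lower than Runx3 (92.1 ± 14.05 TPM) in 5 of 6 libraries, a ratio of -0.32 ± 0.31 with exact p = 0.0625 and adjusted p = 0.07. Junb was lower than Jun in 5 of 6 with the same p values, and Erg higher than Fli1 in 5 of 6 (exact p = 0.25). The ID proteins Id2 and Id1, inhibitors of E proteins, averaged 3.19 ± 1.003 and 4.19 ± 2.22 TPM.

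Genes linked to quiescence stood beside a measurable set of cycling transcripts. Beside 52.3% of protein-coding genes with a known length, all 20 quiescence genes were at 1 TPM or more in every library. Txnip, an inhibitor of thioredoxin that restrains glucose uptake, was the highest of them at 677 ± 195 TPM, with Cited2, a transcriptional coregulator needed by stem cells, at 239 ± 38.9 TPM. Rbl2, the pocket protein p130 of resting cells, had a narrow spread, at 53.8 ± 1.97 TPM. The list as a whole did not, as 10 of the 20 differed over 2 times between libraries (50%, beside 19.8% of all tested genes). At a mean of 10 CPM or more this held for 8 of 18 (44.4%, beside 5.92%). The 24 G2/M genes were also all detected in every library, with a median level of 54.6 TPM, against 26.7 TPM for all detected genes. Such detection is not particular to either list, as all 20 lysosome and autophagy genes reached it too. Top2a, the topoisomerase of dividing cells, averaged 221 ± 51.995 TPM and Mki67, the source of the Ki-67 antigen, 169 ± 28.5 TPM. The replication clamp Pcna averaged 554 ± 93.1 TPM, and the helicase subunit Mcm6 272 ± 30.9 TPM. Of the 19 imprinted growth genes, 8 were detected in every library. Gnas, which encodes the G protein alpha subunit, was the highest at 145 ± 13.9 TPM, followed by the growth factor receptor adaptor Grb10 at 40.96 ± 7.68 TPM. The noncoding RNA Meg3 and the growth factor gene Igf2 averaged 0.527 ± 0.377 and 0.424 ± 0.17 TPM.

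The spread between libraries was examined next, as TMM-scaled CPM of the 14197 genes with enough counts. The biological coefficient of variation (BCV), an estimate of the spread of a gene beyond counting error, had a median of 14.8%. Its central range ran from 9.73% (5th percentile) to 36.3% (95th percentile). The estimate for each gene is drawn toward that of genes of similar abundance. A low BCV is therefore not a measure of the gene's own spread alone. In 2813 genes, 19.8% of those tested, the highest library exceeded the lowest by over 2 times. At a mean of 10 CPM or more this held for 598 of 10103 genes (5.92%). Without replicate 4 the count over all tested genes was 2067 (14.6%). In 843 tested genes (5.94%) an end library was set apart from its nearest neighbour by a gap that exceeded Dixon's 95% critical share of the whole range.

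Several programmes of basic cell function stayed mostly within 2 times between libraries. No gene of 39 in nuclear oxidative phosphorylation, 20 in lysosome and autophagy, 18 translation factors and 13 in MHC class I differed over 2 times between libraries. Their median BCV was 12.8%, 11.4%, 10.9% and 12.7%. Among 91 tested ribosomal protein genes 3 passed this range, with a median BCV of 10.2%. The lysosomal protease Ctsd, for example, had 306, 322 and 344 TPM as lowest, median and highest values and a BCV of 9.04%. These genes are mostly abundant, and at a mean of 10 CPM or more the median BCV was 12.8% and 5.92% differed over 2 times. The narrow range is thus not particular to these lists. Within it, 28 of 39 oxidative phosphorylation genes and 9 of 18 translation factors had all of replicates 1 to 3 above all of 4 to 6, beside 10.8% of all tested genes. Of the 40 identity genes, 9 differed over 2 times (22.5%, beside 19.8% of all tested genes), with a median BCV of 15.96%. Most were abundant, and at a mean of 10 CPM or more 8 of 39 differed over 2 times (20.5%, beside 5.92%), where the 75th percentile of BCV was 15.5%. The 9 of 40 became 3 without replicate 4 and 6 without replicate 3. All of replicates 4 to 6 lay above all of 1 to 3 in 8 of the 40, beside 9.93% of all tested genes. Meis1, at 9.80%, and Tal1, at 9.81%, were the steadiest of them, and Vwf, at 38.1%, the least steady.

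**Figure D4:**
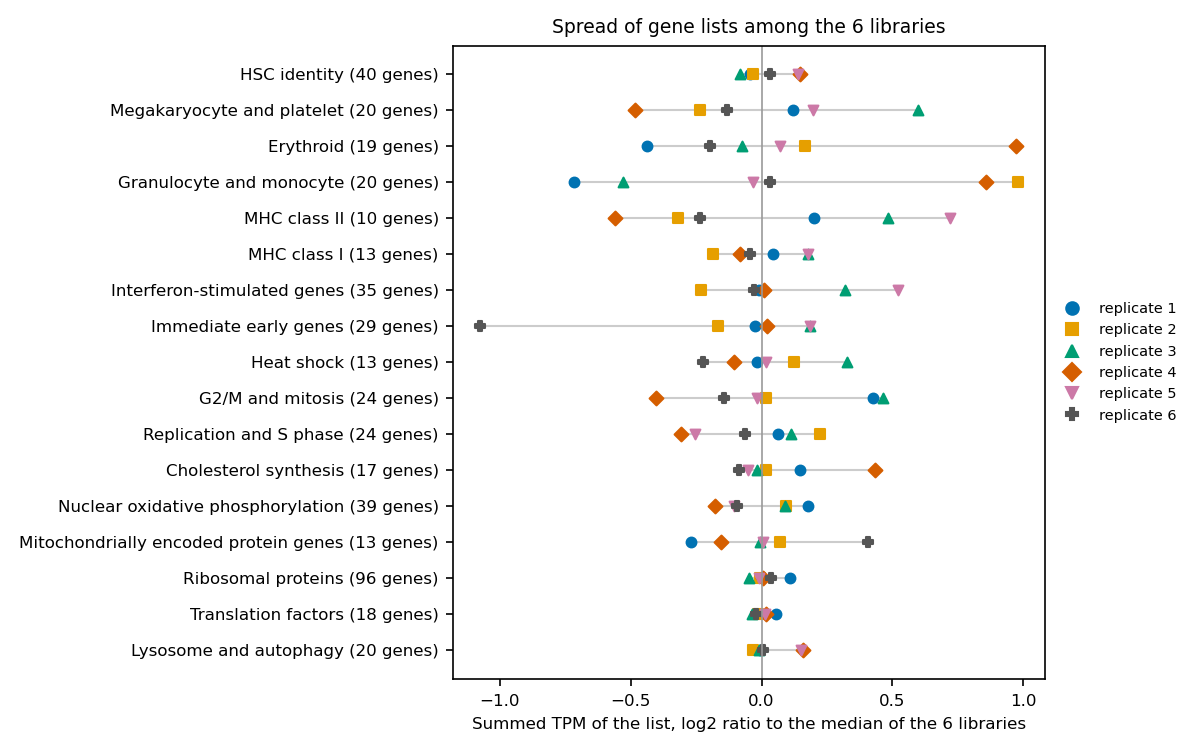
Summed TPM of 17 gene lists in each of the 6 wild-type vehicle libraries, as the log2 ratio to the median of the 6, with 1 symbol per library and a grey line over the range. Immediate early genes sum to 4111 TPM in replicate 6, far left of the other libraries, and erythroid genes to 5012 TPM in replicate 4, far right, while ribosomal protein and translation factor genes stay close to the median.

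The 25 most variable protein-coding or lincRNA genes with a mean of 10 CPM or more had BCVs from 58.9% to 155%. They fell into groups by the library that was high. Hspa1a and Hspa1b, the stress-induced HSP70 genes, led the list. Neutrophil granule genes (Ltf, Ngp, Lcn2, Camp, S100a8 and S100a9) were high in replicates 2 and 4 together and lowest in replicate 1. The Y-linked genes Eif2s3y, Ddx3y, Uty and Kdm5d were highest in replicate 4 and lowest in replicate 2. Kcnj5, a potassium channel, Serpine2, a protease inhibitor, Mrvi1 and the thrombin receptor relative F2rl2 were highest in replicate 3 and lowest in replicate 4. Replicate 6 was highest for Eya4, a transcriptional coactivator, at 41.3 CPM against 2.38 to 8.84 CPM in the other 5, and also for Hnf4a, P2rx7 and Cyp26b1, which degrades retinoic acid. For Eya4 the BCV without replicate 6 was 41.8%, against 94.3% with all libraries. Xlr3b, an X-linked gene, was high in replicates 2 and 6 (35.02 and 27.7 CPM) and 2.30 to 5.06 CPM in the others.

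**Figure D5:**
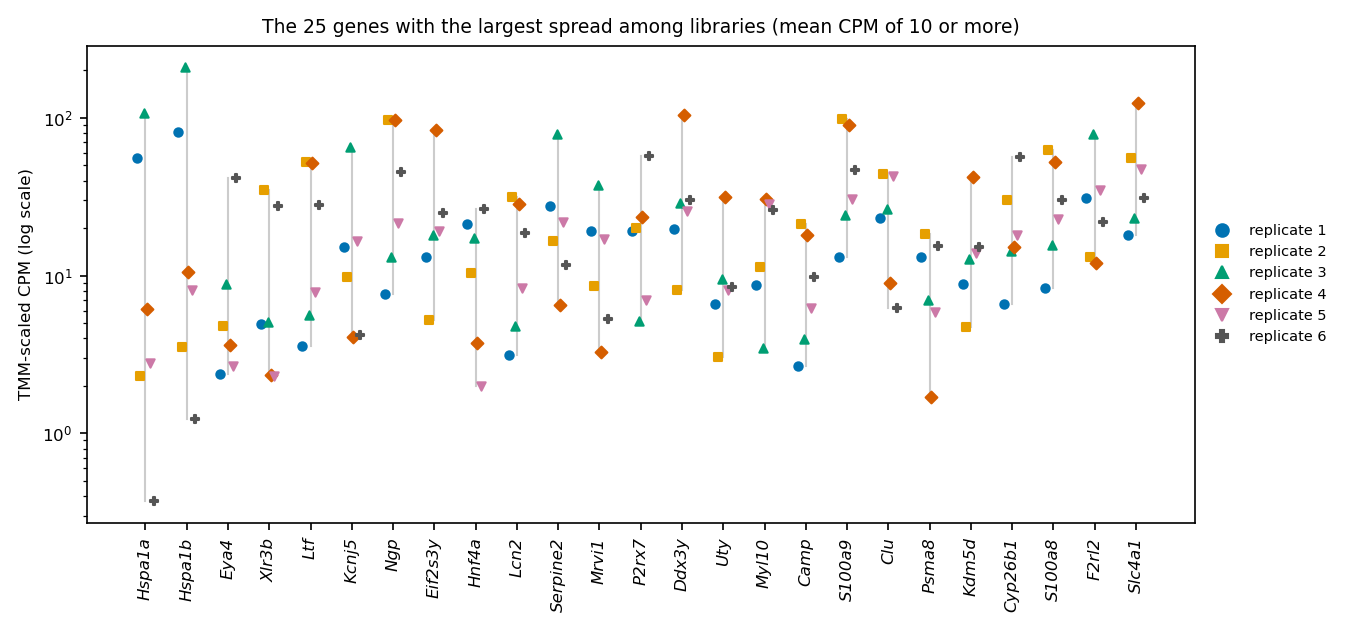
Level in TMM-scaled CPM (log axis) of the 25 most variable genes in each of the 6 wild-type vehicle libraries, ordered by BCV from left to right, with 1 symbol per library and a grey line over the range. Hspa1a spans 0.371 to 108 CPM, and the Y-linked genes are highest in replicate 4.

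The heat shock genes were uneven in 2 libraries. Hspa1a was 108 CPM in replicate 3 and 55.5 CPM in replicate 1, against 0.371 to 6.16 CPM in the other 4, and Hspa1b 209 and 81.3 CPM, against 1.23 to 10.5 CPM. The 2 genes are near-identical copies, and 61.7% of the 75-base stretches of Hspa1a occur in another gene, so the division of reads between them is uncertain. Of 12 tested heat shock genes, 5 differed over 2 times (41.7%, beside 19.8% of all tested genes), and 2 did so without replicate 3. Of the 12, 9 were highest in replicate 3, where 18.7% of all tested genes were highest. The co-chaperone Hsph1 reached 237 CPM in replicate 3, against 77.6 to 128 CPM elsewhere, whereas the constitutive Hsp90ab1 had a BCV of 11.0%. The promoters of the 2 copies show how alike they are. The 250 bases before the annotated start (RefSeq, GRCm38.p6) differ at 3 positions, and each holds 1 match to the heat shock element GAANNTTC, in capitals, that begins 104 bases before the start. Hspa1a is at chr17:34972157-34972406, minus strand, and Hspa1b at chr17:34959239-34959488, minus strand.
Hspa1a: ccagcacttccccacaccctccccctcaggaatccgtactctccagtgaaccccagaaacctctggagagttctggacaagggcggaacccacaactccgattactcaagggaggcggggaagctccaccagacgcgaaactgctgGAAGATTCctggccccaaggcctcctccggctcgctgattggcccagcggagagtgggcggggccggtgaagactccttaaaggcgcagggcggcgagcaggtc
Hspa1b: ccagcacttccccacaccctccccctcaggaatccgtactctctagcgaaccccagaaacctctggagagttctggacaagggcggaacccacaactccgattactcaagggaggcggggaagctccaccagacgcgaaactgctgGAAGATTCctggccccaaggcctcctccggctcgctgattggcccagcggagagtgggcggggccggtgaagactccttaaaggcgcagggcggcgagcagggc
The wider search counted this motif and also the form with its first 3 and last 3 bases swapped. Either form was found in 7 of the 10 heat shock genes with a promoter in the table, beside 14.5% of all 27025 genes. The 2 forms were not counted apart. A match is a description of the letters and not of a bound site.

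Immediate early genes, which are induced within minutes of a stimulus, were lower in replicate 6. Of 25 tested, 22 differed over 2 times (88%, beside 19.8% of all tested genes), and 12 did so without replicate 6. Of the 25, 19 were lowest in replicate 6, where 10.3% of all tested genes were lowest. Their summed level was 4111 TPM in replicate 6, and up to 9851 TPM in the highest library. Fos was 657 CPM in replicate 6, against 1355 to 1736 CPM in the others, and Jund 193 CPM against 412 to 511 CPM. Nr4a1, an orphan nuclear receptor, was 67.8 CPM in replicate 6 and 592 CPM in replicate 4, with 241 to 366 CPM in the others. Btg2, an antiproliferative gene that is also a p53 target, was 25.1 CPM in replicate 6 and 255 CPM in replicate 3. Myc was an exception, with a BCV of 11.2%.

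Genes of more mature lineages differed between libraries more often than the background of 19.8%, and the high library was not the same for each lineage. Of 19 tested granulocyte and monocyte genes, 17 differed over 2 times, with a median BCV of 47.5%. Of the 19, 14 were highest in replicate 2 and 11 lowest in replicate 1, beside 17.6% and 15.4% of all tested genes. The other 5 were highest in replicate 4, a share near the 24.5% of all tested genes. S100a9, a calcium-binding alarmin of neutrophils, was 98.3 and 89.7 CPM in replicates 2 and 4, and 13.2 to 46.4 CPM in the others. Ngp, a granule protein, was 96.1 and 96.4 CPM there, and 7.58 to 45.3 CPM elsewhere. Elane, the elastase of early granulocyte precursors, was instead high in replicate 2 alone, at 93.9 CPM against 20.8 to 41.9 CPM. The macrophage complement genes C1qa and C1qb were likewise highest in replicate 2, at 5.999 and 4.06 CPM.

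Of 19 tested erythroid genes, 15 differed over 2 times, and 10 did so without replicate 4. Of the 19, 15 were highest in replicate 4 and 16 lowest in replicate 1, beside 24.5% and 15.4% of all tested genes. Slc4a1, the anion exchanger of red cells, was 123 CPM in replicate 4, against 18.1 to 55.6 CPM elsewhere. Alas2, the first enzyme of erythroid haem synthesis, was 21.4 CPM there, and 3.85 to 8.998 CPM elsewhere. Hba-a2, an alpha globin, was 253 CPM in replicate 4, and 59.7 to 119 CPM elsewhere; 81.04% of its 75-base stretches occur in another gene, so the division of reads among globin copies is uncertain. Epor, the erythropoietin receptor, differed little (BCV 12.2%).

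Of 19 tested megakaryocyte and platelet genes, 12 differed over 2 times, 6 did so without replicate 3 and 9 without replicate 4. Of the 19, 12 were highest in replicate 3 and 14 lowest in replicate 4, beside 18.7% and 24.4% of all tested genes. Pf4 was 283 CPM in replicate 3 and 45.03 CPM in replicate 4, with 87.4 to 164 CPM in the others. F2r, the thrombin receptor, was 652 CPM in replicate 3, against 207 to 414 CPM. Nfe2, the transcription factor of platelet release, was steady, with a BCV of 10.2%. Replicate 4, lowest for 14 of these 19 genes, was the library in which 15 of the 19 erythroid genes were highest. Whether transcripts of these 3 lineages came from the stem cells or from other cells in the sort was not tested.

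Immune programmes were highest in replicate 5. Of 10 MHC class II genes, 7 differed over 2 times (70%, beside 19.8% of all tested genes), and 6 did so without replicate 4. Of the 10, 8 were highest in replicate 5 and 6 lowest in replicate 4, beside 12.2% and 24.4% of all tested genes. Cd74, the invariant chain, was 269 CPM in replicate 5 and 63.05 CPM in replicate 4, and H2-Aa, a class II alpha chain, 184 and 62.6 CPM. The dendritic cell genes Itgax and Siglech averaged 0.485 ± 0.281 and 0.291 ± 0.311 TPM. Of the 12 macrophage and dendritic genes, 6 were detected in every library, and the list summed to 416 TPM in replicate 4, the lowest, and 1205 TPM in replicate 5, the highest, as class II genes did. That list holds 3 class II genes, and its other 9 summed to 13.7 TPM in replicate 5, 27.98 TPM in replicate 4 and 52.4 TPM in replicate 2, the highest. The part of such cells in the class II levels was not tested. Of 34 tested interferon-stimulated genes, 10 differed over 2 times (29.4%, beside 19.8% of all tested genes) and 23 were highest in replicate 5, where 12.2% of all tested genes were highest. Igtp, an immunity-related GTPase, was 231 CPM in replicate 5, against 78.5 to 196 CPM in the others. Ighm, the immunoglobulin mu constant region, was 332 CPM in replicate 5 and 1.88 to 12.1 CPM in the others, and had the largest BCV of all tested genes. The promoters of Igtp (chr11:58199306-58199555, plus strand) and of the related Irgm1 (chr11:48871421-48871670, minus strand), both highest in replicate 5, hold the core of the interferon-stimulated response element, 2 copies of GAAA with any 2 bases between them, in capitals, within 40 bases of the start.
Igtp: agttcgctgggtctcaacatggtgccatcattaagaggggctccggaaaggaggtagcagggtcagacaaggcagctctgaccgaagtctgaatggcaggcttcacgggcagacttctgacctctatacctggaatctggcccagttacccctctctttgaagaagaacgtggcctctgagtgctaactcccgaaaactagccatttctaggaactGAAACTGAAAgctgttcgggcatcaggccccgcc
Irgm1: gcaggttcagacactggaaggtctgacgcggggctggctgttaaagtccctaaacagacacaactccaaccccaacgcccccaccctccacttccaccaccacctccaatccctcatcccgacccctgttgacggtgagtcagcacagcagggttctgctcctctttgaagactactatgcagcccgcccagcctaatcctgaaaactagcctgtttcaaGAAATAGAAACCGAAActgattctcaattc
This core was found in 14 of 25 interferon-stimulated genes with a promoter in the table, beside 3.46% of all genes, searched on both strands.

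All 24 G2/M genes had the same lowest library, replicate 4, where 24.4% of all tested genes were lowest. Of them, 13 were highest in replicate 3 and 11 in replicate 1, beside 18.7% and 17.7% of all tested genes. Over 2 times the lowest was reached by 13 of the 24 (54.2%, beside 19.8% of all tested genes), and by 1 without replicate 4. Ccnb1, the mitotic cyclin B1, was 49.4 CPM in replicate 4 and 61.1 to 97.5 CPM in the others, and Cdc20, an activator of the anaphase-promoting complex, 44.2 CPM against 60.6 to 111 CPM. Replication genes had their own order. Of 24, 16 were highest in replicate 2 and 17 lowest in replicate 4, beside 17.6% and 24.4% of all tested genes. All 24 had a mean of 10 CPM or more. Of them, 1 differed over 2 times (4.17%, near the 5.92% of all genes at that mean). Mcm6 was 581 CPM in replicate 2 and 395 CPM in replicate 4. Nuclear oxidative phosphorylation genes were lowest in replicate 4 in 30 of 39 cases and highest in replicate 1 in 27, all within 2 times. Of all tested genes 24.4% and 17.7% were so. The mitochondrially encoded genes did not share that order, as 12 of 13 were highest in replicate 6, beside 9.35% of all tested genes. All 24 G2/M, all 24 replication and all 39 oxidative phosphorylation genes were highest in one of replicates 1 to 3 and lowest in one of replicates 4 to 6. Of all tested genes, 54.0% were highest in the former set and 46.9% lowest in the latter. Replicates 1 to 3 all lay above replicates 4 to 6 in 13, 15 and 28 of them, beside 10.8% of all tested genes, and within either set of 3 none of these genes differed over 2 times. Counts of genes over 2 times within replicates 1 to 3 and within 4 to 6 were 1220 and 1215 of all 14197 tested genes. They were 14 and 11 of 19 granulocyte and monocyte genes, and 10 and 10 of 19 erythroid genes. For 19 megakaryocyte and platelet genes they were 6 and 6. For immediate early genes these counts were 5 and 19 of 25, and for MHC class II genes 2 and 6 of 10. For interferon-stimulated genes they were 5 and 6 of 34, and for heat shock genes 3 and 2 of 12. Cholesterol synthesis genes were highest in replicate 4 in 11 of 17 cases, beside 24.5% of all tested genes. The promoter of Ccnb1 (chr13:100786487-100786736, minus strand) carries 2 copies of CCAAT, in capitals (ATTGG where the match is on the other strand), and that of Top2a (chr11:99024190-99024439, minus strand) carries 6, the box known to bind NF-Y in cell cycle promoters.
Ccnb1: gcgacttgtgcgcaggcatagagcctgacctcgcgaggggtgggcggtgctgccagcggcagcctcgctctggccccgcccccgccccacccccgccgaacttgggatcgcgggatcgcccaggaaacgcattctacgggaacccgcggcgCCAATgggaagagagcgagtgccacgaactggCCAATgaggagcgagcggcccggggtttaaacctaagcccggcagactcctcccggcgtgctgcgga
Top2a: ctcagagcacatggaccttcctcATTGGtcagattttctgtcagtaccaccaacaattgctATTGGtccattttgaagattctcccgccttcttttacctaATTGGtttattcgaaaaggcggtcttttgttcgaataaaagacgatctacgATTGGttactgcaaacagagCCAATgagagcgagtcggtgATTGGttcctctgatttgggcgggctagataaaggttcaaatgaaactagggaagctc
At least 2 copies were found in 12 of 20 G2/M genes with a promoter in the table, beside 11.5% of all genes. Among genes at 1 TPM or more in all 6 libraries the share was 15.8%. At least 2 copies also occurred in 8 of 20 replication genes and 3 of 10 heat shock genes.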

How the data were processed

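RNA of sorted LT-HSCs was purified on columns, primed with oligo d(T) and sequenced as single-end 75-base reads, per the labels' protocols. The authors deposited expected counts per gene, which need not be whole. The submitters' processing notes name RSEM 1.2.30, STAR 2.5.2a, cutadapt 1.11 and the build GRCm38, without settings; the annotation release and the strand setting are not given in the sources used here, so overlapping and antisense genes cannot be told apart. Expected counts divide reads shared by several genes. The other 18 libraries of the table were not used.

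From these values TPM were computed with the union of exons of each gene in the GENCODE annotation supplied for GRCm38, without correction for fragment length. Of 38215 genes, 36345 had a length, and genes without one held 0.54 to 0.586% of the counts. A gene was called detected at 1 TPM or more in all 6 libraries. Spread was measured on expected counts rounded to whole numbers, with edgeR 4.0.16 in R 4.3.3: filterByExpr with a minimum count of 10 kept 14197 genes, TMM factors ran from 0.982 to 1.02, and tagwise dispersions came from a design of 1 mean. These dispersions were moderated toward the trend over genes, with the robust option. Python 3.11.15 was used for the rest. The spread step was tested on simulated data. Paralog pairs were compared by exact sign-flip permutation tests. With 27093327 to 35741647 counts per library, 3 counts correspond to 0.0839 to 0.111 CPM, and this limit covers counting error only.

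The genes named were the 25 nuclear and 5 mitochondrially encoded genes of highest mean TPM, the 25 of largest BCV, up to 6 members per list and defining members under 1 TPM, the leading and expressed members of families, the pairs, and the markers. Named outside that rule after their values were seen were Alas2, Bbc3, C1qb, Ccnb1, Cdkn2a, Cdkn2b, Gpr56, Hsph1, Ifit2, Ighm, Lef1, Ndn, Nr4a1, Rpl31, Rpl39, Tap1, Tcf7, Trp63, Trp73 and Vwf. The group, the 130 lists and the 56 pairs were chosen with earlier results of these data known. Of 944 gene names in the lists and pairs, 942 matched the table. Promoters are from RefSeq (GRCm38.p6), and the motif shares are over all genes of that table unless another set is named. Alternatives were other length definitions, other totals, other thresholds and pseudocounts, other scaling (RLE of DESeq2 1.42.0, upper quartile), other filters, unrounded counts each library left out, and a mean for each of replicates 1 to 3 and 4 to 6. Results for some genes are not reported here.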

Additional observations from a re-analysis of the deposited data

Results flagged for a closer look

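For each of 241 named genes the gap between an end library and its nearest neighbour was compared with the whole range of the 6 libraries, by Dixon's criterion at 95%. It was exceeded in 32 genes and in the share of the top 100 genes. Chance exceeds it in about 1 in 20 groups, and 5.94% of all 14197 tested genes exceeded it. The named genes include the 25 of largest BCV and others named after their values were seen, so their share cannot be read against either figure. Values are TMM-scaled CPM, with the library that stood apart first, and no cause was tested.

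Replicate 6 held 30.3% of its TPM in the top 100 genes. It was high for mt-Co1 at 11686 CPM, mt-Co2 at 4658 CPM and mt-Co3 at 3950.5 CPM, against 7165 to 8633, 2699 to 3273 and 2501 to 3018 CPM in the other 5. It was also high for Eya4 (41.3 CPM) and P2rx7, an ATP-gated channel (57.3 against 5.14 to 23.4 CPM). It was low for Fos (657 CPM), Jund (193 CPM) and Aldh1a1 (201 against 244 to 263 CPM).

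Replicate 4 was high for the erythroid genes Slc4a1 (123 CPM), Alas2 (21.4 CPM) and Hba-a2 (253 CPM). The Y-linked genes were high in it as well, with Ddx3y at 103 CPM, Eif2s3y at 84.2 CPM, Kdm5d at 42.1 CPM and Uty at 31.5 CPM. Cdkn1b was 160.3 CPM there, against 91.1 to 116 CPM elsewhere.

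Replicate 3 was high for Hsph1 (237 CPM), F2rl2 (78.5 CPM), Kcnj5 (65.4 CPM) and Serpine2 (78.6 CPM). Nkg7, a granule protein of cytotoxic cells, was 78.3 CPM in it and 34.7 to 47.6 CPM in the others, Fcer1a 14.4 against 4.00 to 6.64 CPM, and Cd48 13.3 against 4.94 to 8.08 CPM.

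Replicate 2 was high for Elane (93.9 CPM), C1qa (5.999 CPM) and C1qb (4.06 CPM). Ccnd1 was 162 CPM in it, against 76.7 to 105 CPM in the others, and Meg3 8.55 against 1.32 to 3.05 CPM. Smad4 was low in it, at 76.01 against 88.2 to 92.9 CPM.

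Replicate 1 was high for Procr (62.2 against 37.4 to 43.4 CPM) and Cox4i1 (216 against 164 to 183 CPM). Replicate 5 was high for Ighm, at 332 CPM.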

How the results depend on the processing

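The number of detected genes, 11976 to 13846, and of pairs with a single order, 45 to 49, stayed within 1.5 times of the main values under the alternatives run. Other scaling factors and unrounded counts gave a median BCV of 14.8% and 2814 to 2854 genes over 2 times between libraries. The share of TPM in the top 100 genes was 23.8% with mitochondrially encoded genes left out and 29.7% with exons of all annotated transcripts, an alternative chosen after the data were seen. The median BCV was 31.4% with no filter and 12.8% for genes with a mean of 10 CPM or more, scaled and fitted alone. With a mean for each of replicates 1 to 3 and 4 to 6, an alternative also chosen after the data were seen, it was 13.6%. The number of genes over 2 times between libraries was 11814 with no filter and 610 in that fit of 10108 genes, against 598 of 10103 under the scaling of all tested genes. Leaving out each library in turn gave 12960 to 13039 detected genes, a top-100 share of 27.6 to 28.3%, a median BCV of 13.99 to 15.7%, 2067 to 2611 genes over 2 times, and 48 to 49 pairs with a single order. With 5 libraries the smallest exact p is 0.0625, so no pair can pass then.

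The log2 ratio of some pairs changed sign. With the length of the longest transcript, Bcl2/Bcl2l1 was -0.18, Id2/Id1 0.034, Ifnar2/Ifnar1 0.056 and Smad4/Smad3 0.065. With exons of all annotated transcripts, Ccnd2/Ccnd3 was 0.80, Bax/Bak1 -0.62, Stat5b/Stat5a 0.34, Ifnar2/Ifnar1 0.53 and Smad4/Smad3 0.054. Leaving out 1 library in turn, Ifnar2/Ifnar1 ran from -0.0233 to 0.0142, Smad4/Smad3 from -0.0738 to 0.0189, and Rac2/Rac1 from -0.0091 without replicate 4 to 0.1068. The cause was not tested. In all, 6 pairs lost the call under another length definition. No paired analysis was possible because a single group was described. Depth limits the scarce genes: a level near 0.1 CPM rests on about 3 counts.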
